A study of Mus musculus with 8 samples.

Results

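The genes Htt, Hap1, Rasd2, Lrrk2, Mapt, App, Grn and Vps35, each tied to a neurodegenerative disease or to the huntingtin protein, were followed in ribosome-bound RNA of the aged mouse striatum. They were taken by symbol from the count tables, and all 8 were found among 32531 genes. The libraries came from accumbens nucleus and from dorsal striatum, 4 of each, of mice older than 20 months that carried the transgene Drd1-EGFP/Rpl10a (line CP73). The transgene carries Drd1 regulatory sequence, which drives a ribosomal protein fused to green fluorescent protein in cells that use the dopamine D1 receptor, and polysomes holding it were pulled from dissected tissue with antibodies against that tag. The labels give no disease allele and no treatment in either region, so every animal is a carrier of the same transgene. They do not say whether a library is 1 animal or a pool, and p-values therefore measure the spread between these libraries, which may be technical.

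Huntingtin is a large scaffold protein of vesicles and microtubule motors, and Huntington disease follows from a lengthened run of CAG codons in its first exon. Spiny projection neurons of the striatum are lost early in that disease, though huntingtin is made in nearly every cell. Hap1 links huntingtin to motor complexes, and Rhes, the small GTPase encoded by Rasd2, is made mainly in the striatum and promotes the attachment of SUMO to mutant huntingtin. Lrrk2 (a kinase of Rab GTPases) and Vps35 (the core of the retromer, which returns cargo from endosomes) are Parkinson disease genes. App encodes the precursor of the amyloid peptide, Mapt the microtubule protein tau, and Grn progranulin, a lysosomal and secreted protein whose loss causes frontotemporal dementia in people.

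Gene counts per library ran from 10831937 to 12639641 in accumbens and from 7466970 to 10363145 in dorsal striatum. A count of 3, the limit that a count of 0 allows, corresponds to 0.237 to 0.402 CPM, the reads of a gene scaled to a common library size. Markers of the projection neurons that the transgene should tag were present in every library. Summed over 8 direct-pathway markers, they reached 1942.5 to 2192 CPM in accumbens and 2282 to 2585 CPM in dorsal striatum. The 6 markers of indirect-pathway neurons, cells outside the intended tag, summed to 628 to 908 CPM in accumbens and 223 to 333 CPM in dorsal striatum. Accumbens 2 and dorsal striatum 3 had the lowest median rank correlation with the other libraries (0.927 and 0.935, against 0.936 to 0.955 for the other 6), and each test was repeated without both of them. Reads without a gene made up 35.5% to 40.6% of the counted reads in accumbens and 27.1% to 33.8% in dorsal striatum, with no overlap, and the ribosomal RNA gene Rn45s took 5.66% to 6.71% of the gene counts in accumbens and 1.91% to 5.84% in dorsal striatum. A fit without the counts of Rn45s, Lars2 and AK140265 is given with the alternatives at the end. The part of the reads without a gene was not tested, nor that of ribosomal RNA beyond its share of the counts.

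Of the 8 genes, Hap1 rose and Rasd2 fell in accumbens relative to dorsal striatum, each more than 2-fold, and the other 6 did not pass the test. A gene was called where edgeR's quasi-likelihood p, adjusted by Benjamini and Hochberg's method, was under 0.05, and fold changes are accumbens over dorsal striatum. All 8 passed the filter on low counts, and over all 12467 tested genes 3.72% were called. The values of the regions did not overlap for Hap1, Rasd2 and Lrrk2, a separation found in 9.69% of the tested genes. In these bulk samples, fewer cells of a type and less RNA per cell cannot be told apart.

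**Figure D1:**
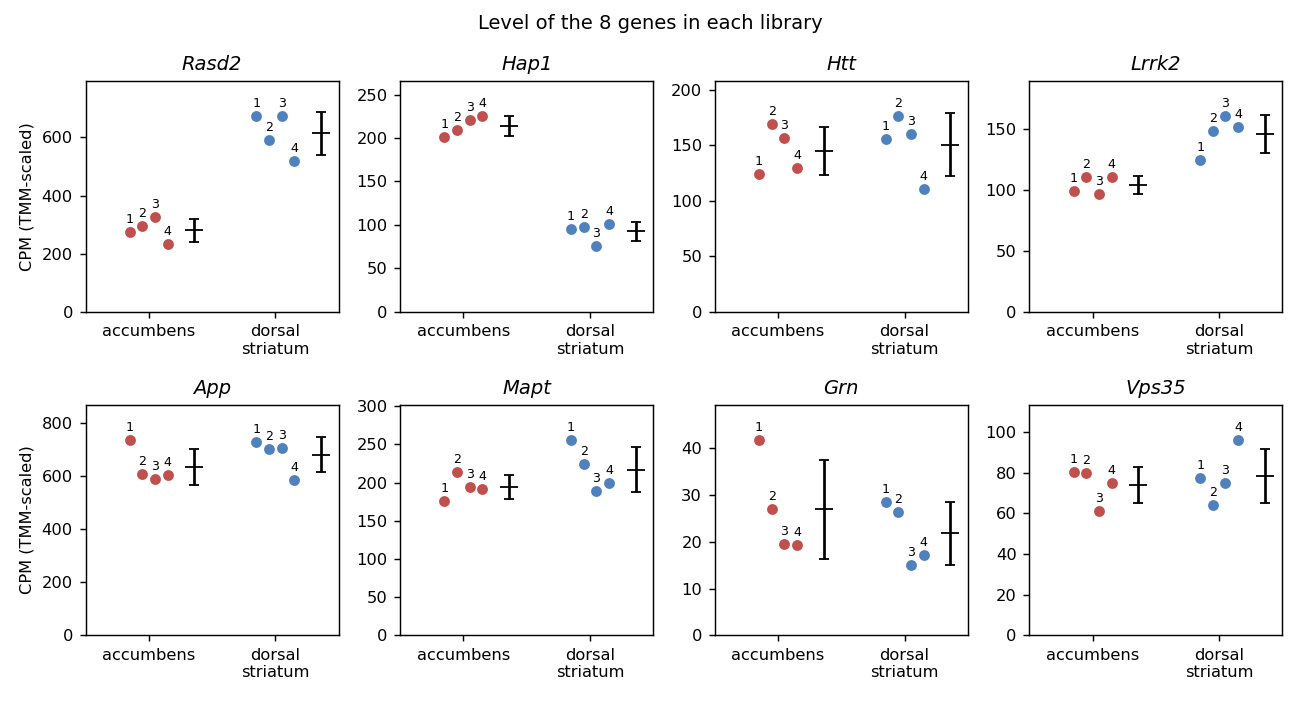
Level of each of the 8 genes in CPM in the 4 accumbens libraries (red, left) and the 4 dorsal striatum libraries (blue, right). Digits are replicate numbers, and the black bar is the mean ± SD of 4 libraries. Hap1 lies higher and Rasd2 and Lrrk2 lie lower in every accumbens library than in any dorsal one, and the regions overlap for the other 5 genes.

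The gene of huntingtin itself was not called, and its values in the regions overlapped. Htt (chromosome 5, 34761740 to 34912534, plus strand) was at 124, 169.8, 157 and 129 CPM in accumbens 1 to 4, against 156, 176, 160.5 and 110.4 CPM in dorsal striatum 1 to 4. The lowest and the highest of the 8 values both belonged to dorsal striatum, in libraries 4 and 2. The log2 fold change was -0.06 ± 0.17 SE (edgeR adjusted p = 0.936), with a 95% interval from -0.41 to 0.30. As folds that interval ran from 0.754 to 1.23. The tract whose lengthening in people causes Huntington disease is short in the mouse reference, and it is printed because it is the part of the gene that sets the disease apart. The 63 bases printed, the tract with flanking codons in small letters, lie in exon 1 at chr5:34761937-34761999 of GRCm38 (plus strand, GENCODE M21 transcript). Capitals mark the 7 glutamine codons of the tract, 6 of them CAG and 1 CAA, at codons 18 to 24.
Htt exon 1: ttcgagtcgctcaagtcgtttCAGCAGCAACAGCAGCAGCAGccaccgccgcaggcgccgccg

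Hap1 (chromosome 11, 100347327 to 100356128, minus strand) encodes huntingtin-associated protein 1, an adaptor between huntingtin, dynactin and kinesin. It was at 201, 209, 221 and 225 CPM in accumbens 1 to 4, against 95.3, 98.1, 75.7 and 101 CPM in dorsal striatum 1 to 4. The lowest accumbens value was almost double the highest dorsal one, and dorsal striatum 3 was the lowest library. The means were 214 ± 11.1 CPM in accumbens and 92.5 ± 11.4 CPM in dorsal striatum (SD, n = 4 each). This gave a log2 fold change of 1.21 ± 0.14 SE (95% interval 0.91 to 1.51, edgeR adjusted p = 6.66e-05), or 2.31-fold. The gene stayed called when any single library was left out, with log2 fold changes from 1.12 to 1.25, and without both accumbens 2 and dorsal striatum 3 (1.14).

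Because Hap1 differed and Htt did not, their proportion differed between the regions. Per kb of the longest protein-coding transcript, Hap1 stood at 4.90 to 6.94 times the level of Htt in the accumbens libraries and at 1.88 to 3.64 times in the dorsal ones, with no overlap. The multiples depend on the length given to Htt: per kb of all merged exons they were 7.99 to 11.3 in accumbens and 3.06 to 5.93 in dorsal striatum. Between the regions, the 6 markers of indirect-pathway neurons moved in the direction of Hap1. All 6 had positive log2 fold changes and 3 were called higher in accumbens, as were 1.60% of all tested genes. Divided by the summed CPM of those 6 markers, a comparison chosen after the values were seen, the CPM of Hap1 was 0.221 to 0.352 in accumbens and 0.286 to 0.339 in dorsal striatum, and the regions overlapped. The lowest ratio was that of accumbens 1, which had the highest sum of these markers (908 CPM) but the lowest Hap1 in accumbens (201 CPM). The part of these markers in the Hap1 difference was not tested. With a glial covariate in the fit (the mean centred log2 CPM of 14 astrocyte, oligodendrocyte and microglia markers), Hap1 had a log2 fold change of 1.22 and Rasd2 one of -1.12. That covariate lay between -0.06 and 0.76 log2 units in accumbens and between -0.97 and 0.54 in dorsal striatum.

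Rasd2 (chromosome 8, 75213944 to 75224113, plus strand), the gene of Rhes, was the most abundant of the 8 per kb in both regions. It was at 273, 294, 326 and 232 CPM in accumbens 1 to 4, against 673, 591, 673 and 519.9 CPM in dorsal striatum 1 to 4. The highest accumbens library lay well under the lowest dorsal one, and replicate 4 was the lowest of each region. The means were 281 ± 39.5 CPM in accumbens and 614 ± 73.8 CPM in dorsal striatum (SD, n = 4 each). The log2 fold change was -1.13 ± 0.14 SE (95% interval -1.41 to -0.84, edgeR adjusted p = 7.87e-05), so that accumbens held 0.458 times the dorsal level. With any single library left out the log2 fold change lay between -1.20 and -1.05 and stayed called, and without both accumbens 2 and dorsal striatum 3 it was -1.10.

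Markers shared by all striatal projection neurons moved in the same direction as Rasd2 between the regions. Of these 10, 5 were called lower in accumbens, as were 2.12% of all tested genes, and 0 higher. They summed to 10541 to 11882 CPM in accumbens and 14092 to 16098 CPM in dorsal striatum. Relative to that sum, again a comparison chosen after the values were seen, the CPM of Rasd2 was 0.0212 to 0.0309 in accumbens and 0.0333 to 0.0457 in dorsal striatum, with no overlap. Relative to the 8 direct-pathway markers it was 0.1101 to 0.168 in accumbens and 0.201 to 0.295 in dorsal striatum. Those 8 markers did not move together: 1 was called higher and 2 lower in accumbens, with log2 fold changes from -1.25 to 1.02. Per kb, Rasd2 stood at 8.14 to 10.3 times the level of Htt in accumbens and at 15.8 to 22.2 times in dorsal striatum, or 13.3 to 16.9 times in accumbens and 25.8 to 36.2 times in dorsal striatum with all merged exons. The closest homologue, Rasd1, a GTPase induced by dexamethasone, was at 0.0853 to 2.06 CPM in accumbens and 0.277 to 1.68 CPM in dorsal striatum, and did not pass the filter on low counts.

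**Figure D2:**
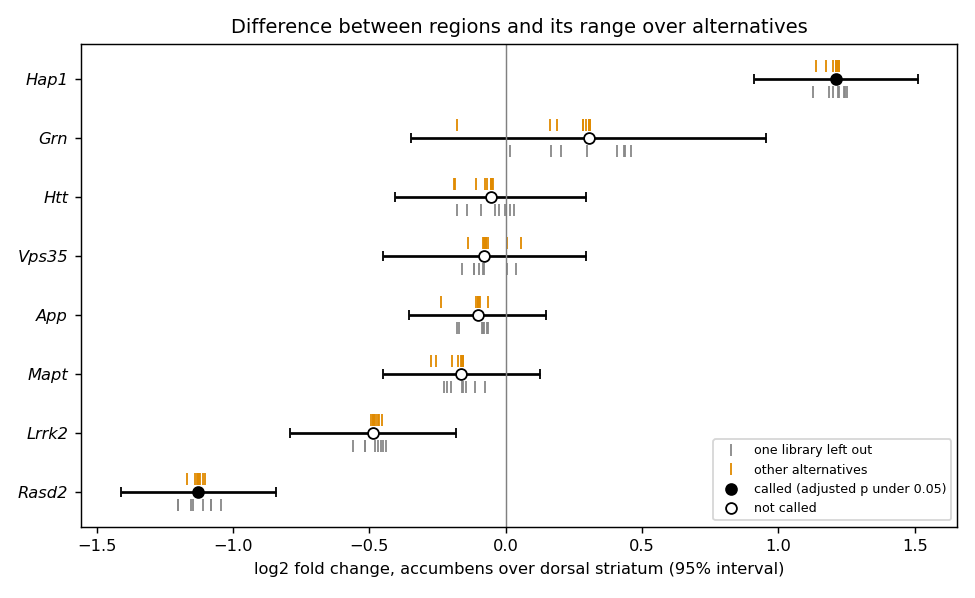
Log2 fold change of each gene, accumbens over dorsal striatum, with its 95% interval (circle filled where called at an adjusted p under 0.05). Grey ticks give the value with 1 library left out, and orange ticks the value under the other alternatives. The ticks of Hap1 and Rasd2 stay on one side, between 1.12 and 1.25 and between -1.20 and -1.05, while those of Htt, Vps35 and Grn fall on both sides of 0.

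The promoters of the 2 genes that differed in opposite directions are shown because they also differ in composition. Each is the 250 bases before the RefSeq start of transcription (for Hap1, the more upstream of 2 starts) in GRCm38.p6, read on the gene's strand, and capitals mark CG dinucleotides. The Hap1 window is chr11:100356142-100356391 (minus strand) and the Rasd2 window chr8:75213694-75213943 (plus strand).
Hap1: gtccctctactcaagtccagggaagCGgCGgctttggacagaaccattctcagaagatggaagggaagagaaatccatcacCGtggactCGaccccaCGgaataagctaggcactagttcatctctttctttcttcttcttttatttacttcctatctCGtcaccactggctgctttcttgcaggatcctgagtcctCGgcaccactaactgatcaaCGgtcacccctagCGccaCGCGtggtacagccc
Rasd2: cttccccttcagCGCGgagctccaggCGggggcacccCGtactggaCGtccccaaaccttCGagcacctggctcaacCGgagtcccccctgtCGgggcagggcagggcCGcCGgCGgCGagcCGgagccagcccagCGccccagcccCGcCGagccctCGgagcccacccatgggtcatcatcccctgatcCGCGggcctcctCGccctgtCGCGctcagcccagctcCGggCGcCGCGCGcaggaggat
The Rasd2 window holds 27 CG dinucleotides and 75.2% G or C, and 8.56% of 32851 mouse promoter windows of this length hold as many CG dinucleotides or more. The Hap1 window holds 11 and is 52.0% G or C, close to the median of 52.4% over all windows, and 35.6% of windows hold as many CG dinucleotides or more. On either strand, the GC box letters GGGCGG are in 32.7% of all windows and the CCAAT box in 33.8%. The TATA box letters TATAAA are in 12.4% and the nuclear receptor site AGGTCA in 14.02% of them. None of these is in the Hap1 or the Rasd2 window, which says only that the letters are not there.

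Of the Parkinson disease genes among the 8, Lrrk2 was lower in accumbens by the values of all libraries but was not called. Lrrk2 (chromosome 15, 91673175 to 91816120, plus strand), whose kinase phosphorylates Rab GTPases, was at 98.8, 110.4, 96.7 and 111 CPM in accumbens 1 to 4, against 124, 148, 160.3 and 151 CPM in dorsal striatum 1 to 4. The regions did not overlap, but the gap between accumbens 4 and dorsal striatum 1 was narrower than the spread within dorsal striatum. The log2 fold change was -0.49 ± 0.14 SE, with a 95% interval from -0.79 to -0.18 before adjustment for the number of genes, and an edgeR adjusted p of 0.0755. DESeq2, which called 6.26% of the genes it adjusted, also called Lrrk2 (adjusted p = 0.0227). The adjusted p lay between 0.0646 and 0.390 in the other alternatives with all libraries or without the doubted pair, and between 0.0750 and 0.197 with 1 library left out.

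Vps35 (chromosome 8, 85260392 to 85299802, minus strand), the retromer subunit that binds the other 2 subunits of the cargo-selective trimer, was at 80.5, 79.8, 61.4 and 74.8 CPM in accumbens 1 to 4, against 77.5, 64.4, 74.8 and 96.2 CPM in dorsal striatum 1 to 4. The regions overlapped over most of their range. Its log2 fold change was -0.08 ± 0.18 SE (95% interval -0.45 to 0.29, edgeR adjusted p = 0.904). An exon of Vps35 shares 171 bases with Orc6 on the opposite strand, and the strand setting of the counting is not given in the sources used here.

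App and Mapt, whose protein products aggregate in Alzheimer disease, did not pass the test. App (chromosome 16, 84949685 to 85173766, minus strand) had the highest CPM of the 8, at 738, 607, 589.5 and 606 CPM in accumbens 1 to 4, against 731, 703, 708 and 585 CPM in dorsal striatum 1 to 4. Accumbens 1 stood far above the other 3 accumbens libraries and dorsal striatum 4 was the lowest of all 8. The log2 fold change was -0.10 ± 0.12 SE (95% interval -0.35 to 0.15, edgeR adjusted p = 0.781), and without accumbens 1 it was -0.18. Mapt (chromosome 11, 104231390 to 104332090, plus strand) was at 176, 214, 194 and 192 CPM in accumbens 1 to 4, against 256, 224, 189 and 199.8 CPM in dorsal striatum 1 to 4. Dorsal striatum 1 and 2 were the highest, and dorsal striatum 3 and 4 lay within the accumbens range. The log2 fold change was -0.16 ± 0.14 SE (95% interval -0.45 to 0.13, edgeR adjusted p = 0.661).

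Grn (chromosome 11, 102430315 to 102437048, plus strand), the gene of progranulin, was the least abundant of the 8 by CPM and the most variable. It was at 41.7, 27.0, 19.5 and 19.3 CPM in accumbens 1 to 4, against 28.5, 26.3, 15.1 and 17.1 CPM in dorsal striatum 1 to 4. Accumbens 1 alone lay above the dorsal range, and the other 3 accumbens libraries lay within it. The coefficient of variation was 39.1% in accumbens and 30.5% in dorsal striatum, against 5.21% and 12.4% for Hap1. Its log2 fold change was 0.30 ± 0.31 SE (95% interval -0.35 to 0.96, edgeR adjusted p = 0.733), and without accumbens 1 it was 0.02.

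Microglia are known to make much progranulin, and each of their 11 markers was at 0 in at least 1 library here. The 11 microglia markers together summed to 5.05 to 19.7 CPM in accumbens and 1.38 to 5.52 CPM in dorsal striatum, and C1qa was at 0 in every library. Only 1 of the 11 passed the filter on low counts. Its log2 fold change was 3.09, higher in accumbens with no overlap and an unadjusted edgeR p under 0.05, but it was not called. Grn alone was 1.53 to 3.82 times the sum of the 11 in accumbens and 4.77 to 13.4 times in dorsal striatum. This comparison too was chosen after the values were seen, and the sums are so small that the multiples are uncertain. Accumbens 1, the library highest in Grn, was also the highest in the summed markers of microglia, of astrocytes (703 CPM, against 258 to 512 CPM in the other accumbens libraries) and of oligodendrocytes (323 CPM, against 127 to 181 CPM). It was the highest in indirect-pathway markers too (908 CPM). Dorsal striatum 1, the dorsal library highest in Grn (28.5 CPM), had only 2.13 CPM of microglia, 239 CPM of astrocyte and 162 CPM of oligodendrocyte markers. Accumbens 3, next to accumbens 1 in microglia markers (12.7 CPM), had Grn at 19.5 CPM. The glial covariate turned the log2 fold change of Grn to -0.18 (edgeR adjusted p = 0.982). That covariate was built from 7 astrocyte, 6 oligodendrocyte and 1 microglia markers, so it cannot single out microglia. The part of microglia in the Grn values was not tested. An exon of Grn shares 68 bases with Fam171a2 on the opposite strand.

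**Figure D3:**
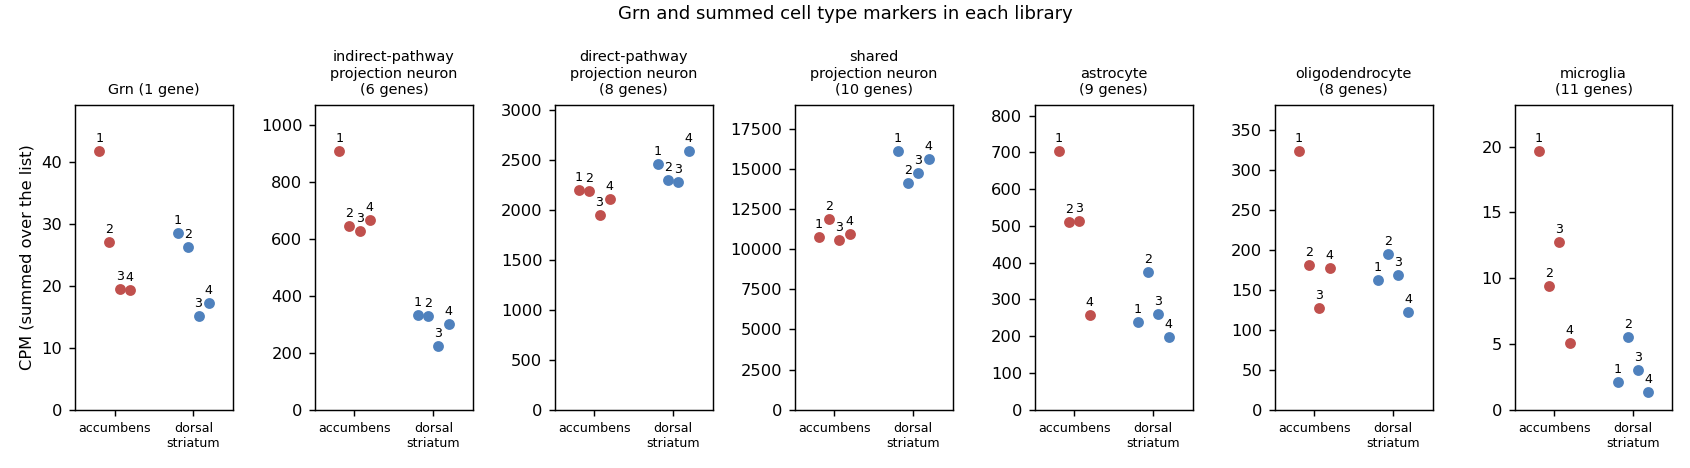
Grn and the summed markers of 6 cell types in CPM by library (accumbens red and left, dorsal striatum blue and right, digits are replicate numbers). Accumbens 1 is the highest library in Grn and in indirect-pathway, astrocyte, oligodendrocyte and microglia markers. Indirect-pathway markers are higher in every accumbens library than in any dorsal one, and markers shared by projection neurons are lower there.

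Levels of different genes were compared as CPM per kb of the longest protein-coding transcript. In accumbens the order was Rasd2 (100.02 ± 14.1 CPM per kb), App (77.8 ± 8.42), Hap1 (64.5 ± 3.36), Mapt (36.9 ± 2.99), Vps35 (21.3 ± 2.55), Lrrk2 (12.6 ± 0.903), Grn (11.5 ± 4.49) and Htt (10.97 ± 1.65), all SD with n = 4. Neighbours whose libraries overlapped were Rasd2 and App, Lrrk2 and Grn, and Grn and Htt. Grn lay above Htt in only 1 of the 4 accumbens libraries, accumbens 1, which raised its mean. In dorsal striatum the order was Rasd2 (219 ± 26.3 CPM per kb), App (83.5 ± 8.03), Mapt (41.3 ± 5.68), Hap1 (27.9 ± 3.44), Vps35 (22.5 ± 3.81), Lrrk2 (17.6 ± 1.87), Htt (11.4 ± 2.14) and Grn (9.30 ± 2.84), and the neighbours that overlapped were Hap1 and Vps35, Vps35 and Lrrk2, and Htt and Grn. Hap1 thus stood above Mapt in accumbens and below it in dorsal striatum, each time in all 4 libraries. Annotated ends and retained introns set these lengths: per kb of all merged exons Hap1 ranked above App in accumbens (56.8 and 48.9 CPM per kb), Lrrk2 above Vps35 in both regions, Grn above Htt in dorsal striatum, and Mapt and Hap1 overlapped in dorsal striatum.

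The genes whose pattern over the 8 libraries was most like each of the 8 were found by the smallest root mean square difference of centred log2 CPM among 9808 other genes of at least 5 CPM. The difference between the regions is part of this pattern, so similar fold changes follow from the search itself. For Hap1 the nearest were Kcnd3, a subunit of A-type potassium channels (0.09 log2 units, log2 fold change 1.14), and Pde1a, a calmodulin-dependent phosphodiesterase (0.11 units, 1.24). Next came Kl, the gene of klotho (0.14 units, 1.22), which was not called (edgeR adjusted p = 0.0662). For Rasd2 the nearest were Slc24a2, a sodium, potassium and calcium exchanger (0.13 log2 units, log2 fold change -1.19), Lrrc10b (0.14 units, -0.95) and Hpca, the calcium sensor hippocalcin (0.14 units, -0.89). Among those of Lrrk2 were Slc35f3 (0.07 log2 units, log2 fold change -0.52) and Syt6, a synaptotagmin (0.08 units, -0.50). The genes nearest to Htt were Cry2, Dnajb2 and Gtf2i, to App Tmbim6, Mtf2 and Ppm1a, and to Mapt Smarce1, Pacsin1 and Ndufb10. Those near Vps35 included Txnrd1 and Arpp21, and those nearest to Grn were Rgs14, Pcbp3 and Kcnj12. Over all 8 genes this distance ran from 0.06 to 0.18 log2 units for these neighbours, and was 0.16 or more for each neighbour of Grn.

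Other genes of the same pathways and diseases were taken as 10 lists with 173 distinct genes, of which 168 were tested. In all, 3 were called higher and 6 lower in accumbens, together 5.36%. Over all tested genes 3.72% were called, 1.60% higher and 2.12% lower. The median log2 fold change of the list genes was -0.03 (0.02 over all tested genes). An exon of at least 67 of the 173 overlaps another gene, in at least 57 cases on the opposite strand. C9orf72 and Washc2, counted under older symbols, also overlap a gene on the opposite strand and are not in these numbers.

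Among 24 huntingtin partners, motors and cargo, 22 were tested and 1 was called in each direction, with a median log2 fold change of 0.10. In this list 4 genes had an unadjusted p under 0.05 in edgeR, as had 14.8% of all tested genes. Ahi1, whose protein binds Hap1, was at 611, 624, 811 and 670.1 CPM in accumbens 1 to 4, against 359.7, 409, 391 and 351 CPM in dorsal striatum 1 to 4. It rose in the same direction as Hap1, with no overlap between the regions (log2 fold change 0.85 ± 0.12 SE, edgeR adjusted p = 0.000489). Itpr1 (exon overlap with 2 antisense genes that the counts do not list), the calcium release channel of the endoplasmic reticulum that huntingtin and Hap1 bind, was at 1119.6, 1268, 1239 and 1219 CPM in accumbens 1 to 4, against 1639, 1990.0, 2314 and 1661 CPM in dorsal striatum 1 to 4. It fell, again with no overlap (log2 fold change -0.65 ± 0.12 SE, edgeR adjusted p = 0.00341). Calls of both genes held under each alternative run. The motor genes Dync1h1 (754 CPM in accumbens and 709 CPM in dorsal striatum) and Kif5c (713 and 825 CPM) were abundant and not called. Bdnf, the growth factor whose transport huntingtin aids, averaged 1.88 CPM in accumbens and 0.406 CPM in dorsal striatum and was not tested.

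Of 11 genes of DNA repair and transcription near human loci that modify the onset of Huntington disease, edgeR, DESeq2 and limma-voom each called 0, and 1 had an unadjusted p under 0.05 in edgeR. Their median log2 fold change was 0.16. In edgeR 3.72% of all tested genes were called and 14.8% had an unadjusted p under 0.05. Of 8 other polyglutamine disease genes 1 was called and 2 had an unadjusted p under 0.05. Atxn1, the gene of spinocerebellar ataxia type 1, was at 482, 598, 599.8 and 515 CPM in accumbens 1 to 4, against 852, 882, 1004 and 1012 CPM in dorsal striatum 1 to 4. It fell with a log2 fold change of -0.77 ± 0.12 SE (edgeR adjusted p = 0.000703) and stayed called under each alternative run, and its exons share 375 bases with Gmpr on the opposite strand. Atn1 and Atxn2, of dentatorubral-pallidoluysian atrophy and another ataxia, were not called, at log2 fold changes of -0.12 and -0.15.

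No tested partner of Rhes was called. Of 15 genes of the mTOR, SUMO, iron and mitophagy pathways, edgeR, DESeq2 and limma-voom each called 0, edgeR gave 0 at an unadjusted p under 0.05, and the median log2 fold change was 0.03. Among all tested genes edgeR called 3.72%, and 14.8% had an unadjusted p under 0.05. Mtor, the growth kinase that Rhes binds, averaged 133 ± 14.02 CPM in accumbens and 114 ± 22.0 CPM in dorsal striatum (SD, n = 4 each), with a log2 fold change of 0.22. Pik3r1, a regulatory subunit of the kinase upstream in the same pathway, had a log2 fold change of 0.08.

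**Figure D4:**
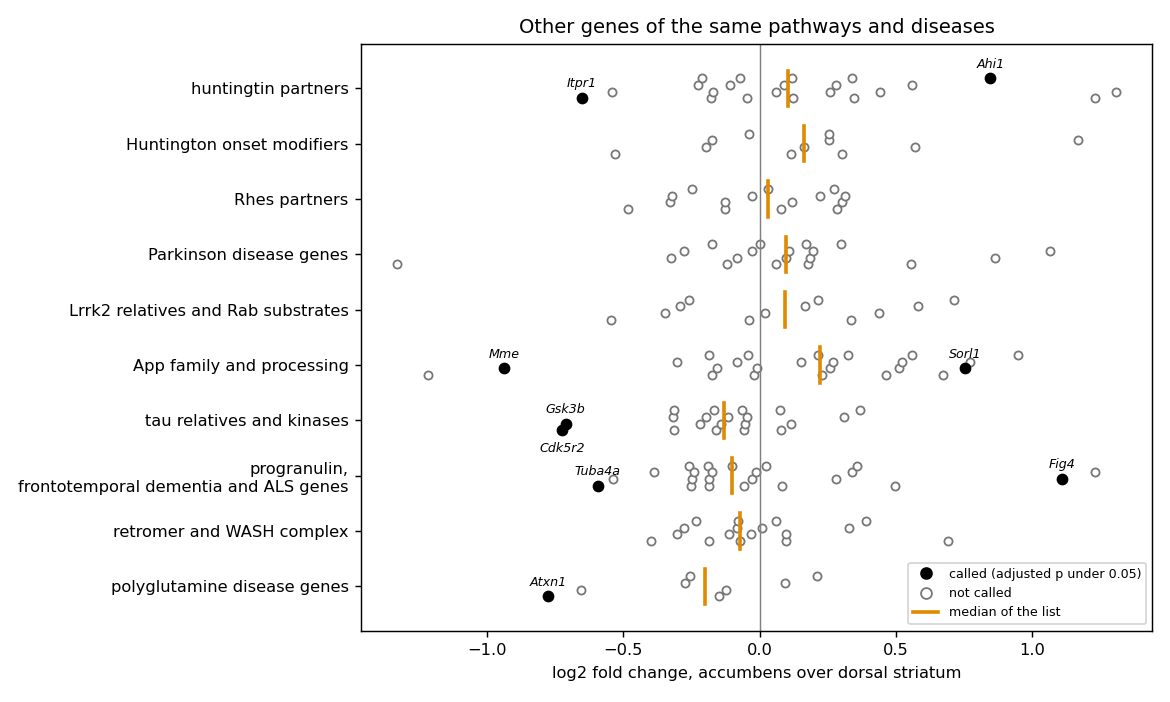
Log2 fold change, accumbens over dorsal striatum, of every tested gene of the 10 lists (filled and named where called at an adjusted p under 0.05), with the median of each list in orange. Called genes lie on both sides of 0, 3 higher and 6 lower in accumbens, and 5 lists hold none.

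The Parkinson disease and Lrrk2 lists held no called gene. By comparison, edgeR called 3.72% of all tested genes and gave 14.8% an unadjusted p under 0.05. Of 19 tested Parkinson genes edgeR, DESeq2 and limma-voom each called 0, 1 at an unadjusted p under 0.05 in edgeR, with a median log2 fold change of 0.10. Synj1, a phosphatase of synaptic vesicle recycling, averaged 1078 CPM in accumbens and 1035 CPM in dorsal striatum. Of 12 relatives and Rab substrates of Lrrk2 the 3 tools also called 0, 1 at an unadjusted p under 0.05. That 1 was Ywhaz, a 14-3-3 protein gene, at 4790 ± 186 CPM in accumbens and 5867 ± 650 CPM in dorsal striatum (SD, n = 4 each, log2 fold change -0.29, edgeR adjusted p = 0.125). Rab3a, a vesicle GTPase, had a log2 fold change of -0.04. Of 17 retromer and WASH complex genes the 3 tools called 0, 1 at an unadjusted p under 0.05, and the median log2 fold change was -0.07. Vps26b, a partner of Vps35 in the retromer, averaged 201 CPM in accumbens and 243 CPM in dorsal striatum (log2 fold change -0.28, edgeR adjusted p = 0.406).

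Of 24 relatives and processing genes of App, 1 was called in each direction, 9 had an unadjusted p under 0.05 and the median log2 fold change was 0.22. Over all tested genes 3.72% were called and 14.8% had an unadjusted p under 0.05 in edgeR. Sorl1, a sorting receptor that binds App and retromer, was at 123, 133, 99.7 and 122 CPM in accumbens 1 to 4, against 81.5, 74.5, 65.8 and 61.5 CPM in dorsal striatum 1 to 4. It rose with no overlap (log2 fold change 0.75 ± 0.16 SE, edgeR adjusted p = 0.0108; an antisense gene shares 185 bases of its exons), but was not called without both accumbens 2 and dorsal striatum 3 (log2 fold change 0.67, adjusted p = 0.0697) or with the glial covariate (0.62, adjusted p = 0.266). Mme, which encodes the amyloid-degrading protease neprilysin, averaged 72.3 ± 26.5 CPM in accumbens and 138 ± 31.5 CPM in dorsal striatum (SD, n = 4 each). It fell with a log2 fold change of -0.93 ± 0.23 SE (edgeR adjusted p = 0.0235), although the regions overlapped, and the call was lost without any one of accumbens 1, 3 or 4 or dorsal striatum 1 or 2 (adjusted p up to 0.112). Aplp1, a relative of App, averaged 1117 CPM in accumbens and 1006 CPM in dorsal striatum and was not called.

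Among 20 relatives and kinases of tau, 2 were called, both lower in accumbens, 5 had an unadjusted p under 0.05, and 5 had positive log2 fold changes (median -0.13). Of all 12467 tested genes, 3.72% were called, 14.8% had an unadjusted p under 0.05 in edgeR, and 6458 genes had positive log2 fold changes. Gsk3b, a kinase that phosphorylates tau, was at 983, 1105, 884 and 896 CPM in accumbens 1 to 4, against 1595, 1309, 1512 and 1915 CPM in dorsal striatum 1 to 4. The regions did not overlap (log2 fold change -0.71 ± 0.13 SE, edgeR adjusted p = 0.00235). Cdk5r2, an activator of the tau kinase Cdk5, was at 211, 267, 272 and 215 CPM in accumbens 1 to 4, against 409, 341, 444 and 399 CPM in dorsal striatum 1 to 4. It fell by 0.72 on the log2 scale (SE 0.14, edgeR adjusted p = 0.00370). Both calls held with any single library left out. With the glial covariate the log2 fold changes were -0.55 for Gsk3b and -0.57 for Cdk5r2, and neither was called (edgeR adjusted p = 0.0977 and 0.114). Map1b and Map1a, other microtubule proteins, were abundant and not called, at log2 fold changes of -0.07 and -0.17.

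Of 23 genes of progranulin biology, frontotemporal dementia and amyotrophic lateral sclerosis, 1 was called in each direction and 5 had an unadjusted p under 0.05, with a median log2 fold change of -0.10. The shares over all tested genes were 3.72% called and 14.8% at an unadjusted p under 0.05 in edgeR. Fig4, a phosphoinositide phosphatase, was at 38.5, 53.1, 46.2 and 49.8 CPM in accumbens 1 to 4, against 20.2, 21.3, 26.2 and 19.4 CPM in dorsal striatum 1 to 4. It rose 2.16-fold (log2 fold change 1.11 ± 0.22 SE, edgeR adjusted p = 0.00639), and with the glial covariate its log2 fold change was 1.14, though no longer called (adjusted p = 0.0769). Tuba4a, a tubulin gene, fell by 0.59 on the log2 scale (edgeR adjusted p = 0.0434), but the call was lost without any library except dorsal striatum 3 (adjusted p up to 0.142), and its exons share 1379 bases with Stk16. Psap, whose protein carries progranulin to lysosomes, averaged 552 ± 82.4 CPM in accumbens and 431 ± 92.1 CPM in dorsal striatum (SD, n = 4 each, edgeR adjusted p = 0.270). Ubqln2, a ubiquilin gene, averaged 377 CPM in accumbens and 546 CPM in dorsal striatum with no overlap and was not called in edgeR (adjusted p = 0.0541), while DESeq2 called it (0.0169).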

How the data were processed

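Ribosome-bound RNA from 4 accumbens and 4 dorsal striatum libraries was analysed from the deposited raw counts, whole numbers of reads per gene symbol with no normalization. The submitters' processing notes name STAR 2.0.0e, HTSeq and the mm10 genome. The annotation, strand setting and filters are not given in the sources used here. Totals of reads without a gene (35.5% to 40.6% of counted reads in accumbens, 27.1% to 33.8% in dorsal striatum) stayed out of library sizes. Libraries were placed by title.

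Under R 4.3.3, edgeR 4.0.16 compared the regions by its quasi-likelihood test after TMM scaling, keeping genes that filterByExpr passed at a minimum count of 10. It was fitted over 12467 genes, with region as the only term. Intervals are fold change ± the t quantile times SE, at 95%. The test was checked on simulated counts. CPM uses TMM-scaled totals, and log2 CPM a prior count of 2. Coordinates and lengths are from GENCODE M21 (GRCm38), and promoters from RefSeq. Alternatives were RLE and upper-quartile normalization, other filters, DESeq2 1.42.0, limma-voom (limma 3.58.1) and the replicate number as a block. Others were a glial marker covariate of 14 genes, thinned libraries, the genes Rn45s, Lars2 and AK140265 left out, and libraries left out. Within each region every pair of libraries differed beyond sampling noise.

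The 8 genes and the lists were chosen with earlier results of these data known. Named genes were the 8, and from each list up to 4 called genes of largest fold change and up to 3 of highest CPM, plus the 3 genes of nearest pattern to each of the 8. Some of these are not reported here. Bdnf and Rasd1 were named after their values were seen. Of the list genes, 8 were matched by an older symbol.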

Additional observations from a re-analysis of the deposited data

Results flagged for a closer look

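A single library stood far from the other 3 of its region, by Dixon's criterion, for 1 of the 8 genes and 5 other named genes, out of 88 groups of 4 libraries. Chance gives about 1 such group in 20. App was at 738 CPM in accumbens 1, against 589.5 to 607 CPM in the other accumbens libraries. Lrp1, a receptor that binds App and apolipoprotein E, was at 766 CPM in accumbens 3, against 258 to 341 CPM in the others, and its excess over dorsal striatum (log2 fold change 0.95) was not called in edgeR (adjusted p = 0.0625). Without accumbens 3 that log2 fold change was 0.48, and edgeR called Lrp1 without accumbens 4 (adjusted p = 0.0207) and with no filter on low counts (0.000138). In accumbens 2, Mtor was at 154 CPM (126 to 127 CPM in the others), Ubqln2 at 438 CPM (352 to 364 CPM) and Tuba4a, as the lowest, at 110.4 CPM (154 to 157 CPM). Rrm2b, a ribonucleotide reductase gene, was at 113 CPM in dorsal striatum 4, against 91.1 to 93.4 CPM in the other dorsal libraries.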

How the results depend on the processing

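Hap1 and Rasd2 kept their direction and call under all 19 alternatives. Over all genes, 464 were called, 763 with DESeq2, 161 with the glial covariate, and 324 to 411 with 1 library left out. With Rn45s, Lars2 and AK140265 left out, 462 genes were called, and log2 fold changes were 1.21 for Hap1 and -1.13 for Rasd2. Lrrk2 was called with DESeq2 (log2 fold change -0.48). Genes near 0 changed sign in places. Without 1 library Htt ran from -0.18 to 0.0287 and Vps35 from -0.16 to 0.0361; Vps35 was 0.00635 with limma-voom and 0.0550 with the glial covariate, and Grn was -0.18 with that covariate. With it 0 App, 0 tau and 0 progranulin and dementia list genes were called (3, 2 and 3 at an unadjusted p under 0.05), where edgeR without it called 2 of each, limma-voom 2 of each, and DESeq2 2, 2 and 3. The 6 genes kept their direction, with log2 fold changes of -1.002 for Mme, 0.62 for Sorl1, -0.55 for Gsk3b, -0.57 for Cdk5r2, 1.14 for Fig4 and -0.68 for Tuba4a. The App list had 1 call without both accumbens 2 and dorsal striatum 3. Without 1 library the App list and the progranulin list each had 1 to 2 calls. The cause was not tested. Same-numbered libraries did not deviate together (correlations of -0.08 to 0.01, against -0.13 to 0.11 for libraries of unlike number). Noise of single libraries can hide a shared animal, so this cannot decide whether equal numbers are pairs. The labels do not say. With the replicate block 432 genes, the same 2 of the 8 and 1 gene of the progranulin list were called. Genes at low CPM, such as Grn, had the widest intervals.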
